A study of Danio rerio with 10 samples.

Results

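Expression of 6 genes of the zebrafish hatching gland was described across islet2a morphants, islet2a mutants and both kinds of wildtype embryos at 48 hpf (hours post fertilization, 2 dpf). The genes were he1.1, he1.2, ctslb, klf17, agr2 and xbp1, 6 of the 19260 genes that had a probe set annotated with 1 gene symbol. All 6 were measured. A gene was read from the probe set chosen by its mean signal over the 10 arrays, the highest being kept, a rule that mattered only for agr2, whose 2 probe sets had means of 8.74 and 5.57 on the log2 scale. That level is not a result, and the rule used no difference between groups. The 6 genes themselves were chosen with earlier results of these data known.

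The hatching gland is a transient secretory organ of the fish embryo. Its cells arise from the polster, the anterior end of the prechordal plate, spread over the yolk, fill with granules and release proteases that digest the chorion, the envelope from which the larva hatches. he1.1 and he1.2 encode hatching enzymes, secreted zinc proteases of the astacin family. ctslb, long known as hatching gland gene 1, encodes a cathepsin L protease. klf17 encodes a Krüppel-like transcription factor of the polster that is also expressed in blood precursors. xbp1 encodes a transcription factor of the unfolded protein response that is strong in secretory cells, the hatching gland included. agr2 encodes a protein of the protein disulfide isomerase family in the endoplasmic reticulum (ER), which in the mouse is needed for mucin production in goblet cells.

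The arrays asked how transcripts differed between embryos in which the transcription factor gene islet2a was knocked down and embryos in which it was mutated. The 3 morphant samples came from wildtype embryos injected at the one-cell stage with T-MO, a morpholino that blocks translation of islet2a. The 3 mutant samples came from embryos homozygous for a TALEN-induced frameshifting deletion in islet2a. The controls were 2 samples of uninjected wildtype embryos and 2 of homozygous wildtype siblings of the mutants, pooled as 4 controls. Each sample was RNA of pooled whole embryos, labelled from 100 ng, and the sources used here do not say whether the embryos had hatched. None of the 10 arrays held embryos injected with a control morpholino, so injection and loss of islet2a translation cannot be told apart in the morphants.

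Values are log2 signals, on which a difference of 1 is 2-fold. Array medians lay between 4.92 and 4.96. Arrays of the same group correlated at 0.983 to 0.992 and arrays of other groups at 0.972 to 0.988 over 75212 probe sets. The islet2a probe set (isl2a) read 8.51 to 8.61 in controls, 9.79 to 9.96 in morphants and 8.95 to 9.13 in mutants. A translation block and a small deletion need not remove the transcript, so these values do not check the labels.

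The 3 proteases were higher in morphants than in mutants, by 2.26-fold for he1.1, 2.83-fold for he1.2 and 2.45-fold for ctslb. The wildtype arrays lay between both groups for he1.1 and overlapped both for he1.2 and ctslb. xbp1 was also higher in morphants, by a smaller amount, and had nearly the same level in mutants and wildtype embryos. The protease differences passed an adjusted p below 0.05 by limma but not by a pairwise analysis of variance. They also did not pass when each group was set against its own kind of wildtype. The difference of xbp1 between morphants and controls lost the adjusted p in 15 of 22 alternatives. klf17 and agr2 passed the adjusted p in no comparison, though agr2 had an unadjusted limma p below 0.05 in mutants against controls. In whole embryos, fewer cells of a type and less RNA per cell cannot be told apart.

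he1.1 had signals of 9.27, 9.84 and 9.21 in the 3 morphants and of 8.25, 8.13 and 8.42 in the 3 mutants. The uninjected wildtype samples read 8.69 and 9.13, and the sibling wildtype samples read 9.16 and 8.46. Every morphant lay above every control and every control above every mutant, an order without overlap that no other of the 6 genes showed. The share of all probe sets with this full order was not counted. Taken singly, 9.18% of all probe sets had all morphants above all controls and 5.65% had all mutants below all controls. The nearest values were morphant replicate 3 above sibling replicate 1, and sibling replicate 2 above mutant replicate 3, both by less than the spread among controls. Group means were 9.44 ± 0.34 (SD, n = 3) in morphants, 8.86 ± 0.34 (SD, n = 4) in controls and 8.26 ± 0.15 (SD, n = 3) in mutants.

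he1.2, the neighbour of he1.1 in the reference annotation, read 7.26, 7.44 and 6.85 in morphants and 5.45, 5.67 and 5.94 in mutants. Its values were 6.21 and 7.16 in uninjected wildtype and 6.99 and 5.93 in sibling wildtype embryos. Morphants and mutants did not overlap, but both overlapped the controls. Uninjected replicate 2 and sibling replicate 1 lay among the morphants, and sibling replicate 2 fell just below the highest mutant. The means were 7.18 ± 0.31 (SD, n = 3) in morphants, 6.57 ± 0.59 (SD, n = 4) in controls and 5.68 ± 0.25 (SD, n = 3) in mutants. The third gene of this row, he1.3, was looked up after its values were seen and read 2.93 to 3.64 on the 10 arrays, below every array median. he1.1 and he1.2 are related tandem genes, and how far their probe sets detect each other's transcripts was not tested.

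ctslb had signals of 10.98, 11.44 and 10.99 in morphants and of 9.59, 9.71 and 10.22 in mutants. It read 10.01 and 10.78 in uninjected wildtype and 11.07 and 10.12 in sibling wildtype embryos. Morphants again lay above mutants on every array. Sibling replicate 1 exceeded 2 of the 3 morphants, and mutant replicate 3 exceeded the lower control of each kind. The means were 11.13 ± 0.26 (SD, n = 3), 10.50 ± 0.52 (SD, n = 4) and 9.84 ± 0.34 (SD, n = 3) for morphants, controls and mutants.

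**Figure D1:**
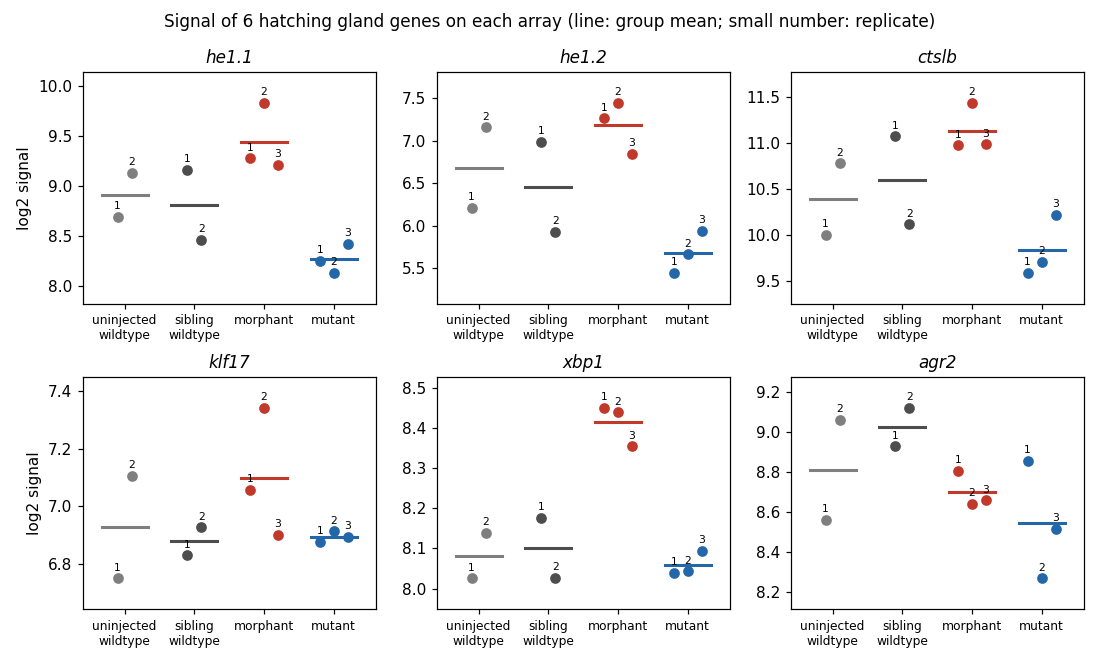
Log2 signal of each of the 6 genes on the 10 arrays, by group, with the replicate number above each point and a line at the group mean; each panel has its own vertical scale, which does not start at 0. For he1.1, he1.2 and ctslb all 3 morphants lie above all 3 mutants. The wildtype arrays lie between them for he1.1 and overlap both for he1.2 and ctslb. xbp1 is higher in morphants (8.35 to 8.45) than on any other array.

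The direct comparison of morphants with mutants asks whether knockdown and mutation left different levels of a transcript. In a limma fit over all probe sets, he1.1 was 1.18 higher on the log2 scale in morphants (SE 0.22, 95% interval 0.70 to 1.66, adjusted p = 0.00689). By limma he1.2 differed by 1.50 (SE 0.31, interval 0.82 to 2.19, adjusted p = 0.0111). ctslb differed by 1.29 (SE 0.29, interval 0.66 to 1.93, limma adjusted p = 0.0154). Thus 3 of the 6 genes were called higher in morphants, at an adjusted p below 0.05 and at least 2-fold, against 1.64% of all probe sets. xbp1 passed the adjusted p without the fold, so that 4 of 6 passed against 7.5% of all probe sets, and for the same 4 genes the groups did not overlap, against 16.4%. No gene of the 6 was called lower. The genes were chosen with earlier results of these data known, so these shares are a description and not a test of the set. All probe sets also include 53551 without a symbol and many dim ones. The 6 genes are named and read at percentile 56.8 or higher on every array. Shares among named probe sets of like signal were not counted.

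The exact permutation test of 3 morphants against 3 mutants (two-sided) gave p = 0.1 for each of these 4 genes, the smallest p that this design allows. With a pairwise analysis of variance in place of limma the 3 proteases missed the threshold, with Benjamini-Hochberg adjusted p of 0.0746 for he1.1, 0.0580 for he1.2 and 0.0793 for ctslb. Without morphant replicate 2, the highest array for all 3 genes, only he1.2 was still called: he1.1 dropped under 2-fold (0.98) and ctslb had a limma adjusted p of 0.0575. That array was also an extreme for genes outside the 6. It was the highest for cd63 and ctsl.1 and the lowest for gsc and klf11a, genes that are described below. Without mutant replicate 2, ctslb had a limma adjusted p of 0.0589.

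Against the 4 controls, none of the 6 genes reached the call in morphants, where 0.67% of all probe sets were called higher. The protease differences were similar in size, 0.58 (SE 0.20) for he1.1, 0.61 (SE 0.29) for he1.2 and 0.64 (SE 0.27) for ctslb, or 1.50-fold, 1.53-fold and 1.56-fold. Their limma adjusted p were 0.145, 0.288 and 0.228. At an unadjusted limma p below 0.05, 3 of the 6 genes were higher (he1.1, ctslb and xbp1), beside 10.2% of all probe sets, and the pairwise analysis of variance called 0. Morphants lay above all controls for 2 of the 6 genes, he1.1 and xbp1, against 9.18% of all probe sets. The exact permutation test (two-sided, 3 against 4) gave p = 0.0571 for both, the smallest it allows.

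In mutants none of the 6 genes was called against the same 4 controls, where 0.0824% of all probe sets were called lower and 0.179% passed the adjusted p alone. The differences pointed down for the proteases, by -0.60 (SE 0.20) for he1.1, -0.89 (SE 0.29) for he1.2 and -0.65 (SE 0.27) for ctslb, with limma adjusted p of 0.236, 0.219 and 0.324. At an unadjusted limma p below 0.05, 4 of the 6 genes were lower (the 3 proteases and agr2), beside 6.09% of all probe sets, and the pairwise analysis of variance again called 0. Only he1.1 had all mutants below all controls, against 5.65% of all probe sets, with an exact permutation p = 0.0571 (two-sided, the smallest possible). Both comparisons used the same control arrays, so a high or low control shifts both differences the same way.

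**Figure D2:**
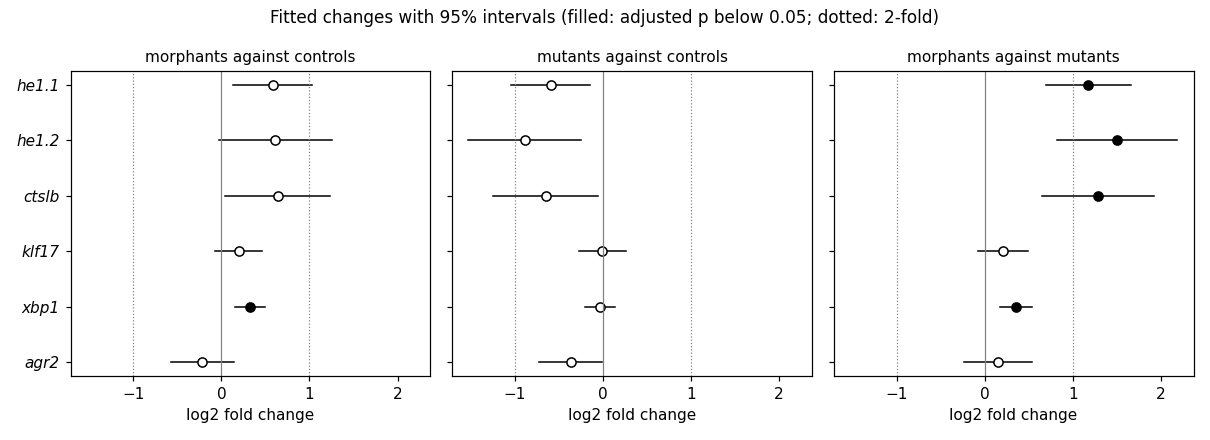
Fitted log2 fold changes (points) with 95% intervals (lines) of the 6 genes in 3 comparisons from the 3-group limma fit, with filled points where the adjusted p was below 0.05 and dotted lines at 2-fold. Only in morphants against mutants do he1.1, he1.2 and ctslb have filled points, at 1.18, 1.50 and 1.29, while xbp1 is filled at 0.32 against controls and 0.36 against mutants.

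Each treatment was also set against its own kind of wildtype, which removes the shared arrays. Morphants differed from uninjected embryos by 0.53 for he1.1, 0.50 for he1.2 and 0.74 for ctslb. Mutants differed from their wildtype siblings by -0.55, -0.78 and -0.75 for the same genes. The difference between the 2 changes was 1.08 (SE 0.36) for he1.1, 1.28 (SE 0.50) for he1.2 and 1.49 (SE 0.47) for ctslb, with limma adjusted p of 0.192, 0.257 and 0.170. None of the 6 was called, against 0.48% of all probe sets called higher, and 4 of 6 were higher at an unadjusted limma p below 0.05, beside 7.8% of all probe sets. Morphants lay above both uninjected samples for 3 of 6 genes (he1.1, ctslb and xbp1), against 15.2% of all probe sets, and mutants lay below both siblings for 2 of 6 (he1.1 and agr2), against 12% of all probe sets.

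The wildtype arrays themselves varied for the proteases. With each gene centred on its mean over the 10 arrays and the 3 proteases averaged, uninjected replicate 2 and sibling replicate 1 stood at 0.41 and 0.46. Uninjected replicate 1 and sibling replicate 2 stood at -0.31 and -0.44. The high and low wildtype samples were thus split within each kind rather than between them. Morphants ranged from 0.40 to 0.96 and mutants from -0.85 to -0.42, so both high wildtype arrays reached the lowest morphant and sibling replicate 2 reached the highest mutant. Uninjected and sibling wildtype embryos differed by 0.10 (SE 0.28) for he1.1, 0.22 (SE 0.39) for he1.2 and -0.20 (SE 0.36) for ctslb. None of the 6 genes was called between the 2 kinds by limma, none had an unadjusted p below 0.05, and none separated them without overlap, against 17.8% of all probe sets that were higher in uninjected embryos and 14.6% that were lower.

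The 3 proteases followed each other from array to array. Over the 10 arrays Pearson's r was 0.962 for he1.1 with he1.2, 0.960 for he1.1 with ctslb and 0.957 for he1.2 with ctslb. After each of the 4 group means was taken away the values were 0.875, 0.918 and 0.944. In each group the same array was highest for all 3 proteases, but the order of the other arrays differed in morphants and in mutants. In each kind of wildtype, with 2 arrays, the deviations mirror each other, so these values rest on fewer than 10 independent points. Over the 10 arrays xbp1 followed them at 0.820 to 0.856 and klf17 at 0.611 to 0.667, whereas agr2 stood at 0.227 to 0.267. Many other probe sets followed the proteases as well or better. Among 16150 named probe sets with a signal above the median, xbp1 ranked 666 for he1.1, 644 for he1.2 and 295 for ctslb. There klf17 ranked 3386, 3638 and 3622, whereas the other proteases ranked from 3 to 11. With the group means taken away xbp1 stood at 0.826 with he1.1, 0.971 with he1.2 and 0.874 with ctslb. These values are close to those between the proteases. In the same way klf17 stood at 0.471 to 0.585 and agr2 at 0.034 to 0.099. These are descriptions over 10 arrays that share the groups, the RNA samples and the normalization.

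**Figure D3:**
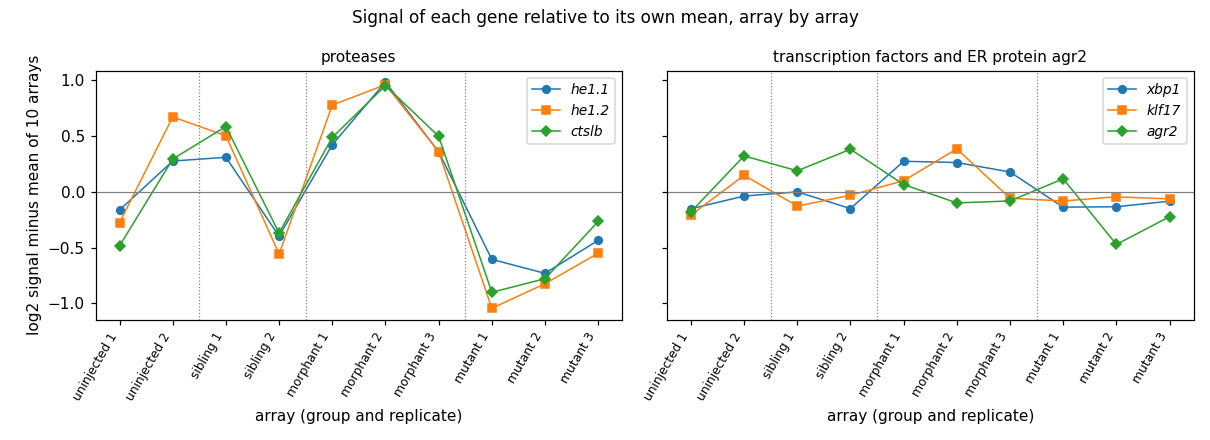
Log2 signal of each gene minus its own mean over the 10 arrays, array by array, for the proteases (left) and for xbp1, klf17 and agr2 (right), with dotted lines between groups. The 3 proteases move together, up in uninjected replicate 2, sibling replicate 1 and all morphants and down in the mutants, and the other 3 genes vary over a narrower range.

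The genes whose signal most resembled each protease were found among 15305 named genes with a signal above the median of all probe sets. For he1.1 they were epha7 (r = 0.984), ptges3b (0.974) and itga6a (0.973). For he1.2 they were senp6a (0.965), map3k21 (0.964) and he1.1 itself (0.962). For ctslb they were si:dkey-26g8.5 (0.991), si:dkey-239j18.3 (0.986) and zgc:174153 (0.986), of which the first and second share a probe set with ctslb in the array annotation. epha7 encodes an ephrin receptor and itga6a an integrin subunit.

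ctslb belongs to a cluster of similar genes. One further probe set carried ctslb together with 10 other symbols and was set aside, and 5 of those 10 had a probe set of their own. These were examined after the values of ctslb were seen and are given without a test. In 4 of the 5 all morphants lay above all mutants, against 16.4% of all probe sets. The differences were 1.84 for si:dkey-26g8.5, 1.399 for zgc:174855, 1.38 for wu:fa26c03 and 1.33 for si:dkey-239j18.3. The fifth, si:dkey-239j18.2, differed by 0.61, overlapped between the groups and was below the array medians on every array (2.69 to 4.30). Correlations with ctslb were 0.790 to 0.991 over the 10 arrays. Probe sets of such copies can detect each other's transcripts, so the signal cannot be assigned to ctslb alone, and the copies are not separate evidence.

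**Figure D4:**
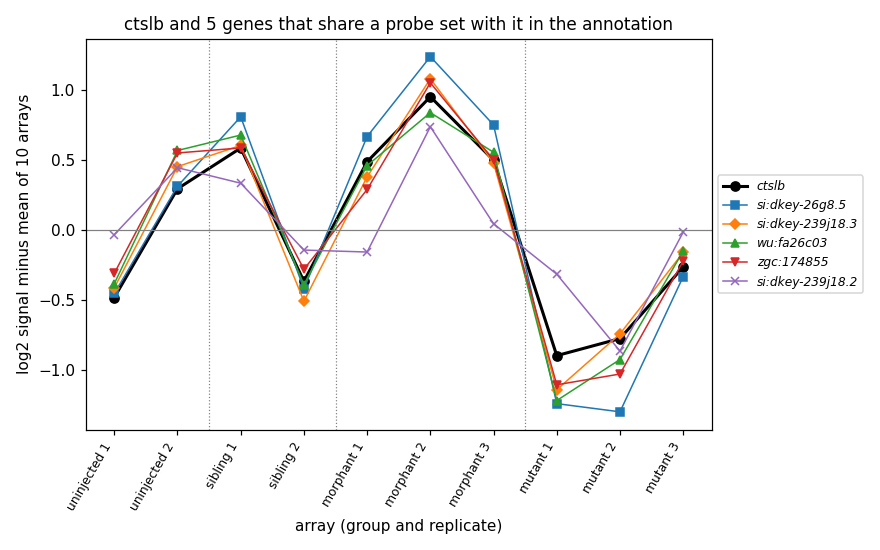
Log2 signal minus the mean of the 10 arrays for ctslb (thick line) and the 5 genes that share a probe set with it in the annotation, array by array, with dotted lines between groups. In ctslb and 4 of the 5 the 3 morphants lie above the 3 mutants, against 16.4% of all probe sets, and si:dkey-239j18.2 overlaps.

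xbp1 read 8.45, 8.44 and 8.35 in morphants. Its values were 8.03 and 8.14 in uninjected wildtype, 8.18 and 8.03 in sibling wildtype, and 8.04, 8.04 and 8.09 in mutants. All 3 morphants were above all other arrays, and no mutant fell outside the controls. The means were 8.41 ± 0.052 (SD, n = 3) in morphants, 8.09 ± 0.077 (SD, n = 4) in controls and 8.06 ± 0.030 (SD, n = 3) in mutants.

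xbp1 was 1.25-fold higher in morphants than in controls (0.32 on the log2 scale, SE 0.076, limma adjusted p = 0.0389), the only one of the 6 genes to pass the adjusted p there, against 3.59% of all probe sets. It was 1.28-fold higher in morphants than in mutants (0.36, SE 0.081, limma adjusted p = 0.0181). In mutants it differed from controls by -0.03 (95% interval -0.20 to 0.14, limma adjusted p = 0.901). The difference from controls passed by a narrow margin. Its limma adjusted p rose above 0.05 in 9 of the 10 fits that left out 1 array, up to 0.145, with sibling replicate 1 the exception (0.0482), and the pairwise analysis of variance gave an adjusted p of 0.0734. The difference from mutants no longer passed in 3 of those 10 fits, with limma adjusted p of 0.0672 when morphant replicate 1 was dropped, 0.0523 for morphant replicate 2 and 0.0610 for mutant replicate 2. Set against own wildtype kinds, the changes of xbp1 in morphants and mutants differed by 0.37 (SE 0.14, limma adjusted p = 0.224). The genes most like xbp1 were spout1 (r = 0.989), tlk1a (0.987) and cldc1 (0.981).

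klf17 read 7.06, 7.34 and 6.90 in morphants, 6.88, 6.91 and 6.90 in mutants, 6.75 and 7.11 in uninjected wildtype and 6.83 and 6.93 in sibling wildtype embryos. Morphant replicate 2 was the highest array, as for the 3 proteases, but morphant replicate 3 lay within the range of the mutants. The difference was 0.20 between morphants and controls (95% interval -0.07 to 0.46, limma adjusted p = 0.425) and 0.21 between morphants and mutants (-0.08 to 0.49, limma adjusted p = 0.337). Between mutants and controls it was -0.01 (-0.27 to 0.26, limma adjusted p = 0.986). The intervals leave out a 2-fold difference in either direction for klf17 in all 3 comparisons, and the order of the groups is not set by these data. LOC799520 (r = 0.968), fam174b (0.961) and nmt1b (0.943) had the most similar signals.

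agr2 had its highest group means in the wildtype embryos. It read 8.80, 8.64 and 8.66 in morphants, 8.86, 8.27 and 8.52 in mutants, 8.56 and 9.06 in uninjected wildtype and 8.93 and 9.12 in sibling wildtype embryos. Both morphants and mutants averaged lower than controls, by 0.22 (SE 0.16) and 0.37 (SE 0.16), and uninjected replicate 1 lay below all morphants. Neither passed (limma adjusted p = 0.533 and 0.359), and morphants and mutants differed by 0.15 (limma adjusted p = 0.622). On the other agr2 probe set all morphants (5.40 to 5.51) and all mutants (5.12 to 5.55) lay below all controls (5.57 to 6.02), with differences of -0.37 and -0.43 and limma adjusted p of 0.153 and 0.191. Morphants without overlap below controls made up 8.59% of all probe sets. The genes most like agr2 were drap1 (r = 0.922), inip (0.918) and si:ch211-265o23.1 (0.918).

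Among other listed genes of the hatching gland and polster, 2 passed in morphants against controls and 3 in morphants against mutants. Of 12 listed genes 10 were measured, and their median change was -0.06 in morphants and -0.01 in mutants against controls, beside -0.02 and 0.01 over all probe sets. The arrays held RNA of whole embryos, so the signal of these genes cannot be assigned to the gland. cd63, a tetraspanin widely used as a hatching gland marker, read 10.01 to 10.58 on the 10 arrays and differed by 0.07 between morphants and mutants (95% interval -0.22 to 0.37, limma adjusted p = 0.778). gsc, encoding the organizer and prechordal plate factor Goosecoid, was lower in morphants than in controls by -0.93 (SE 0.12, limma adjusted p = 0.00196), and bmp4, a signalling ligand, was higher by 0.34 (SE 0.084, limma adjusted p = 0.0471). bmp4 read 9.22, 8.95 and 9.11 in morphants, 8.57, 8.58 and 8.54 in mutants and 8.69 to 8.83 in controls, the same order without overlap as he1.1. The share of all probe sets with that order was not counted. gsc and bmp4 were the only list members to pass against controls in morphants, where 3.59% of all probe sets passed as higher and 1.57% as lower. In mutants none passed, and 3 of the 10 had an unadjusted limma p below 0.05 in either direction, beside 13.4% of all probe sets. Between morphants and mutants bmp4 (0.53) and six3b (0.51) were higher, with 7.5% of all probe sets passing as higher. gsc was lower in morphants than in mutants (95% interval -1.28 to -0.72, limma adjusted p = 0.00128), with 6.11% of all probe sets passing as lower.

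The relatives of the 2 hatching enzymes passed in no comparison. Of 13 other astacin proteases 12 were measured, among them meprins and the procollagen proteinases of the bmp1 and tolloid type. None passed the adjusted p in any comparison by limma, and 1 of 12 had an unadjusted p below 0.05 in morphants against controls, 0 in mutants against controls and 1 in morphants against mutants, beside 19%, 13.4% and 27.9% of all probe sets. On every array 8 of the 12 read below the array median, as he1.3 did. Their median differences in these comparisons were -0.08, 0.01 and -0.09.

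Of 18 cathepsins besides ctslb 16 were measured. ctsl.1, another cathepsin L gene, was higher in morphants than in controls by 1.00 (SE 0.20, limma adjusted p = 0.0202) and than in mutants by 0.88 (SE 0.22, limma adjusted p = 0.0243). Before rounding the difference from controls fell just short of 2-fold, so ctsl.1 was called in neither comparison. Its signals were 5.93, 6.89 and 5.98 in morphants and 5.16 to 5.45 on the other arrays, so morphant replicate 2 was again the highest. ctss2.1, a cathepsin S gene, was higher in morphants than in mutants by 1.45 (SE 0.42, limma adjusted p = 0.0450). It read 8.77, 8.47 and 7.13 in morphants, 6.66, 6.61 and 6.73 in mutants and 7.24 to 8.48 in controls, with morphant replicate 3 below every control. Thus 1 of 16 cathepsins passed as higher in morphants against controls and 2 of 16 against mutants, beside 3.59% and 7.5% of all probe sets. No cathepsin passed in mutants against controls, where 2 of 16 had an unadjusted limma p below 0.05 beside 13.4% of all probe sets, and the list medians in the 3 comparisons were 0.03, -0.08 and 0.16.

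Among 20 measured Krüppel-like factors other than klf17, klf5a (0.73) and klf15 (0.66) were higher in morphants than in controls and klf11a was lower (-1.04, SE 0.17, limma adjusted p = 0.00816), so that 2 and 1 of 20 passed beside 3.59% and 1.57% of all probe sets. Between morphants and mutants 5 were higher and 6 lower, beside 7.5% and 6.11% of all probe sets, among them klf11a at -1.55 (SE 0.19, limma adjusted p = 0.00101). None passed in mutants against controls, and 2 of 20 had an unadjusted limma p below 0.05, beside 13.4% of all probe sets. The median change was -0.12 in morphants and 0.05 in mutants against controls.

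The agr2 protein resides in the ER and Xbp1 regulates genes of the ER. Of 68 listed genes of ER folding, the unfolded protein response and secretion, 62 were measured. In morphants 6 passed as higher and 6 as lower than controls, beside 3.59% and 1.57% of all probe sets. The higher genes included ddit3, which encodes the stress factor CHOP (1.95, SE 0.16), creb3l3b, a membrane-bound transcription factor gene (1.29, SE 0.18), atf4a (1.18, SE 0.092) and atf4b (1.099, SE 0.086), which encode the translationally controlled stress factor ATF4. The others were srprb (0.79) and spcs2 (0.38), parts of protein entry into the ER. The lower genes were the calreticulin genes calr3a (-0.88), calr (-0.82) and calr3b (-0.73), the disulfide isomerase gene pdia3 (-0.79), sdf2l1 (-0.58) and creld2 (-0.53). hspa5, encoding the main ER chaperone BiP, differed by 0.02 (SE 0.16, limma adjusted p = 0.963). The limma adjusted p of the 12 genes ranged from 0.000202 for atf4a to 0.0482 for creld2. In mutants none of the 62 passed against controls, and 11 had an unadjusted limma p below 0.05, beside 13.4% of all probe sets. Against mutants, 9 of 62 were higher in morphants and 6 lower, beside 7.5% and 6.11%. The median change over the list was -0.05 in morphants and -0.07 in mutants.

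Markers of other cell types that could carry these transcripts were read as list means on each array, and their part in the results was not tested. The exocrine pancreas list (15 of 17 measured), a secretory tissue, averaged 4.43 to 4.59 in morphants, 4.48 to 4.59 in mutants and 4.42 to 4.60 in controls, all under the array medians. The notochord list (10 of 10) averaged 7.62 to 8.02, 7.65 to 7.81 and 7.63 to 7.84. The erythrocyte list (10 of 12), read because klf17 is a gene of blood precursors, averaged 9.26 to 9.49, 9.43 to 9.59 and 9.41 to 9.58. The mucous cell list (4 of 8, agr2 among them) averaged 6.71 to 7.04 in morphants, 6.81 to 6.90 in mutants, 6.58 to 6.80 in uninjected and 7.13 to 7.25 in sibling wildtype embryos. For each list mean the range in morphants overlapped that in mutants, but single markers moved in both directions. Between morphants and mutants 3 of 10 erythrocyte markers passed by limma, the globin gene hbbe3 higher (1.09) and hbae3 (-0.53) and the heme synthesis gene alas2 (-1.34) lower. alas2 read 9.04 to 9.50 in morphants and 10.45 to 10.78 in mutants, without overlap. In the notochord list 3 of 10 passed, ntd5 higher (0.57) and the collagen gene col9a1a (-0.90) and entpd5a (-0.73) lower. Over all probe sets 7.5% passed as higher and 6.11% as lower between morphants and mutants. No exocrine pancreas or mucous cell marker passed. At an unadjusted limma p below 0.05 there were 2 of 15 and 0 of 4, beside 27.9% of all probe sets.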

How the data were processed

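RNA of 10 whole-embryo samples was hybridized to GeneChip Zebrafish Gene 1.0 ST arrays. The deposited log2 values are signals that the authors made by RMA (background correction, quantile normalization and probe set summary) with the oligo package in R, whereas the submitters' processing notes name GCRMA; versions are not given in the sources used here. Levels of different probe sets were compared only with a median over probe sets and to choose the probe set of a gene. The number of arrays limits the precision.

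Gene names came from the platform annotation: 20806 of 75212 probe sets had 1 symbol, 855 several and 53551 none, and 20323 of the gene identifiers were found in the reference gene table. Only probe sets with 1 symbol were named. limma 3.58.1 in R 4.3.3 was fitted to all 75212 probe sets and 10 arrays with 3 groups (morphants, mutants and pooled controls), and with 4 groups for comparisons by kind of wildtype, on 7 and 6 residual degrees of freedom. P-values were two-sided and adjusted by Benjamini-Hochberg over all probe sets, and a call needed an adjusted p below 0.05 and at least 2-fold. Nothing says that replicates came from separate clutches, so p-values measure the spread between these samples, which may be technical. Exact permutation tests used scipy 1.17.1, and figures were drawn with matplotlib 3.10.9. The fit was also run on simulated data with independent noise and no fold threshold. Such data differ from these arrays, so that run does not test the calls given here. No sample was left out of the main fits.

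The text names the 6 genes, for each the 3 other genes with the highest Pearson r over the 10 arrays, and from each gene list those called, otherwise up to 2 in each direction that passed the adjusted p. hspa5 and cd63, the other list members named beyond this rule, he1.3 and the ctslb copies were added after their values were seen. The 6 genes and the lists were chosen with earlier results of these data known. Alternatives covered the fit (the pairwise analysis of variance of the methods among them), controls, normalization, filters, prior, array weights, replicate block, call rule, probe set and each array left out.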

Additional observations from a re-analysis of the deposited data

How the results depend on the processing

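Over all alternatives tried, 102 counts of called genes stayed within 1.5 times the main count and 3 moved. The main count was above 0 only for morphants against mutants. For the other comparisons a kept count means only that 0 stayed 0. The count for morphants against controls rose from 0 to 1 (xbp1) with no fold threshold. That for morphants against mutants fell from 3 to 0 with the pairwise analysis of variance of the study's methods and to 1 without morphant replicate 2. It ranged from 1 to 3 when single arrays were left out. The kept counts for morphants against mutants include 2 without mutant replicate 2 and 4 with no fold threshold. Of the single gene values, 561 kept direction and side of the threshold, 23 lost the adjusted p and 16 changed sign. The losses concerned xbp1 in morphants against controls (15 of 22 alternatives, among them repeated quantile normalization, limma adjusted p = 0.0655, and either wildtype kind alone, 0.130 and 0.117), xbp1 against mutants (3 of 20) and the proteases against mutants (he1.1 in 1, he1.2 in 1 and ctslb in 3 of 20). The sign changes were in klf17 and in the differences between the kinds of wildtype. In mutants against controls klf17 was 0.016 with sibling wildtype alone, 0.012 with array weights and 0.041 with the replicate block. With single arrays left out it was -0.0595 to 0.0588, and its difference of changes was -0.0214 to 0.334. Between the kinds of wildtype, leaving out single arrays gave -0.25 to 0.45 for he1.1, -0.30 to 0.75 for he1.2, -0.68 to 0.27 for ctslb, -0.13 to 0.23 for klf17, -0.463 to 0.0367 for agr2 and -0.0940 to 0.0553 for xbp1. For he1.2 and ctslb these ranges reached the size of their differences between morphants and controls. The causes were not tested. Whether replicate numbers pair the samples is not known. Deviations of 13 same-numbered pairs correlated at -0.097 to 0.223, 2 of them over 0.1. Those of 24 other pairs correlated at -0.223 to 0.099, 0 of them over 0.1. In a group of 2 arrays the deviations mirror each other, so this check cannot exclude pairing. With the replicate block 3 genes were still called in morphants against mutants, and xbp1 against controls had a limma adjusted p of 0.102.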
